A study of Homo sapiens with 4 samples.

Results

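The unfolded protein response and the integrated stress response were followed through 10 genes picked by name, HSPA5, XBP1, HERPUD1, ATF4, ATF3, DDIT3, ASNS, SESN2, CHAC1 and TRIB3, out of the 39323 gene names in each library. All 10 averaged 1 TPM or more across the 4 libraries, as did 12985 genes in all, and these genes were compared. TPM express each gene, corrected for its length, as transcripts in a total of 1000000 per library. RD and JR1 are established human cell lines of fusion-negative rhabdomyosarcoma, a tumour of the skeletal muscle lineage. Each line was infected with a pLKO.1-puro lentivirus carrying either shSCR, a scrambled control hairpin, or shSKP2, a hairpin against SKP2 that the design text calls shSKP2.2. SKP2 is the substrate-recognition subunit of a ubiquitin ligase of the cell cycle. All 4 groups thus share the infection, and the study selected infected cells with puromycin and kept them in high-glucose DMEM with serum. Uninfected cells were not analysed here, a second hairpin against SKP2 was not analysed here, and the time of harvest is not given in the sources used here. Each line and hairpin gave 1 poly-A selected library, so the differences below lack replicates and were not tested.

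The unfolded protein response is the answer of a cell to unfolded proteins in the endoplasmic reticulum (ER). Sensors in the ER membrane act through the kinase and nuclease IRE1, which splices the XBP1 message, through the factor ATF6, which is cut in the Golgi, and through the kinase PERK. PERK shares its substrate, the translation factor eIF2, with kinases that sense amino acid shortage, viral RNA and haem shortage, and this common branch is the integrated stress response. Phosphorylated eIF2 slows general translation and favours that of ATF4, which switches on genes for amino acid supply, redox balance and, under prolonged stress, cell death. Since ATF4 is controlled largely in translation and XBP1 by splicing, the level of either message is not a measure of the active protein, and TPM per gene do not tell spliced from unspliced XBP1.

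The promoters of the 10 genes were read for 4 known stress elements, as the sequence background of the values that follow. The stretches came from RefSeq on build GRCh38.p14, in windows from 250 bases before to 50 bases after an annotated start, and all 10 genes matched. The ER stress element, read by ATF6 with NF-Y, was searched as CCAAT, any 9 bases and CCACG. The ER stress element II was ATTGG, any 1 base and CCACG, the UPR element was TGACGTGG, and the C/EBP-ATF element, which ATF4 binds with C/EBP partners, was TGATGNAA. Both strands were searched, and the reverse complement of the UPR element opens with the CCACG of the ER stress elements, so that these can overlap. The stretches below carry the elements of 5 members, printed in the direction of transcription with the element in capitals. They lie at chr9:125241344-125241473 (minus strand, HSPA5), chr22:28800570-28800669 (minus strand, XBP1), chr16:56931952-56932061 (plus strand, HERPUD1), chr7:97872409-97872508 (minus strand, ASNS) and chr15:40953231-40953330 (plus strand, CHAC1).
HSPA5: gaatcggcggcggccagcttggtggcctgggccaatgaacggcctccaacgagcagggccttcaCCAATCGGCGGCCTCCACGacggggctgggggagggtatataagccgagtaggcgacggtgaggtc
XBP1: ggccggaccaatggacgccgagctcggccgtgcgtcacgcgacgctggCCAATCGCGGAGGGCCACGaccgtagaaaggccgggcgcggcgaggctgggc
HERPUD1: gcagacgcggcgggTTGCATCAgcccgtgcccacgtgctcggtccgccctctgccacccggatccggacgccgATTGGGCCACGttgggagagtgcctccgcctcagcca
ASNS: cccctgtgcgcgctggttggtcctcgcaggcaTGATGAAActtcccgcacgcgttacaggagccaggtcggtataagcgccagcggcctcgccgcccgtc
CHAC1: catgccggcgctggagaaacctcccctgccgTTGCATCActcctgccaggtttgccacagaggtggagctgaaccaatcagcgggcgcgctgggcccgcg
HSPA5 held the ER stress element at -66 to -48 and XBP1 at -52 to -34 from the start, an element found in 25 of 27305 genes with a window (0.0916%). HERPUD1 held the ER stress element II at -117 to -107, which 19 genes hold (0.0696%), and a C/EBP-ATF element at -176 to -169. The C/EBP-ATF element, present in 1217 genes (4.46%), was also found in ASNS at -68 to -61, in CHAC1 at -209 to -202 and in ATF3 at -191 to -184. In HERPUD1 and CHAC1 it matched on the opposite strand and appears as TTGCATCA. No exact match of the 4 elements was found in the windows of DDIT3, ATF4, TRIB3 and SESN2. A match or its lack describes these letters in this window and no more. The UPR element, held by 253 genes (0.927%), was in none of the 10.

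**Figure D1:**
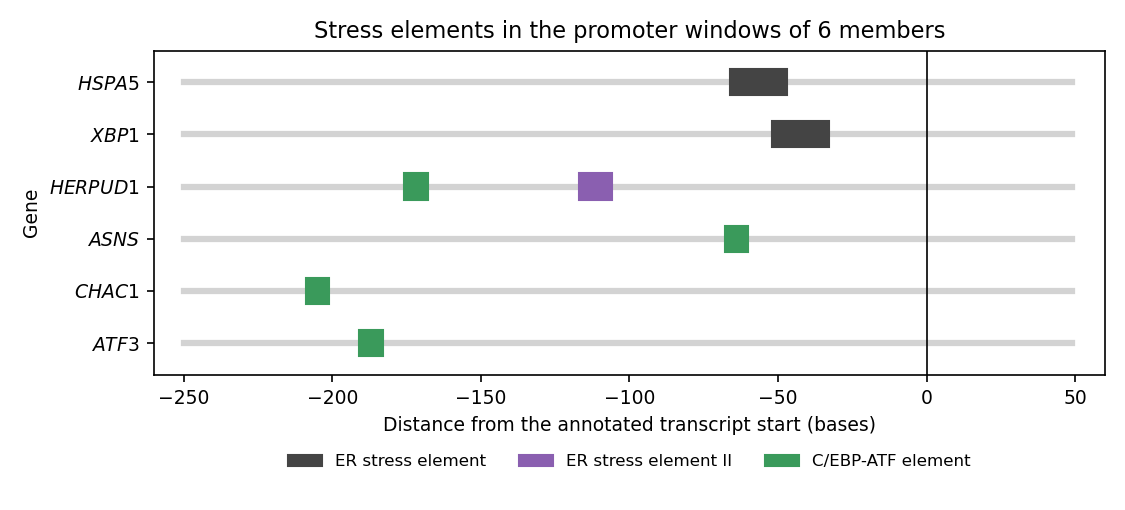
Positions of the stress elements (coloured boxes) in the promoter windows (grey bars) of the 6 members that hold one, against the distance in bases from the annotated transcript start. The elements of XBP1, HSPA5 and ASNS lie closest to the start, and that of CHAC1 furthest from it.

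SKP2 went from 92.84 TPM in RD shSCR to 7.40 in RD shSKP2, and from 46.47 to 2.72 in JR1, a log2 change of -3.48 and -3.67. Of 8 rhabdomyosarcoma markers 7 were at 1 TPM or more in every library, and MYF5 was listed at 0 in all 4. Their summed level was 258.68 and 273.63 TPM in RD and 332.75 and 396.1 in JR1, shSCR before shSKP2. This sum hides opposite changes. Of the 7, 4 were higher with shSKP2 in both lines and 1, FGFR4, was lower in both. The log2 change of FGFR4 was -1.89 (RD) and -1.39 (JR1), and that of MYOG 0.87 and 0.98. DES was at 0.14 and -0.50. FGFR4, MYOG and DES were named after their values were seen. Of 5 epithelial markers KRT8 and KRT18 passed 1 TPM in every library and the other 3 stayed at or under 0.16, and the 5 blood cell markers stayed at or under 0.86. Structural RNA genes, such as 7SL and 7SK, made up 58.6% and 69.1% of all TPM in RD, shSCR before shSKP2, and 66.5% and 72.1% in JR1. Since TPM share 1 total, a larger structural share leaves less for other genes, and the compared genes had a median knockdown change of -0.27 (RD) and -0.21 (JR1) on the log2 scale. When the structural genes were taken out and the rest brought back to 1 total, called rescaling here, the minimum of 1 TPM was applied again. On that scale 15220 genes passed it, with medians of 0.12 and 0.01. Counts and shares of all genes after rescaling refer to these 15220. Rescaled values are given beside the knockdown changes of the 10 genes. The part of the structural share in the results was otherwise not tested.

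Levels are per length and can be set side by side within a library. ATF4 had the highest TPM of the 10 genes and HSPA5 the second highest in 3 libraries, and in JR1 shSCR their order was the reverse. XBP1 was in the next place and CHAC1 in the last place in all 4. Between these extremes the order moved with the hairpin. ASNS ranked 5323 of the compared genes in RD shSCR and 2009 in RD shSKP2, and 5098 and 1488 in JR1. SESN2 went from rank 7300 to 3113 in RD and from 4709 to 1618 in JR1. XBP1 moved the other way, from rank 984 to 1483 in RD and from 827 to 1362 in JR1.

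**Figure D2:**
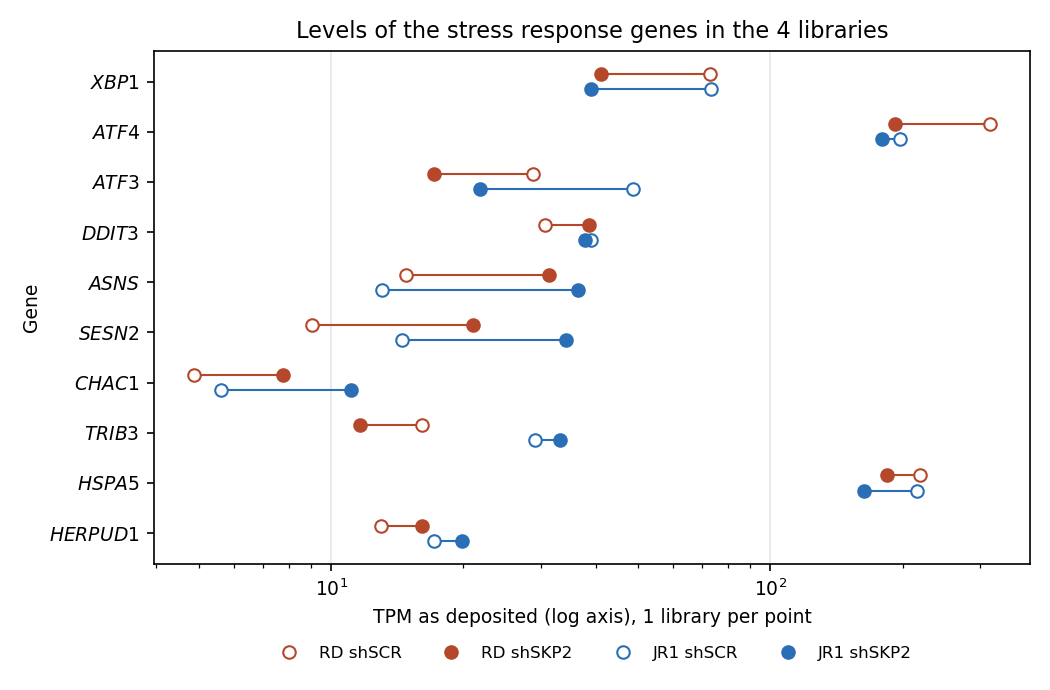
TPM as deposited (log axis) of the 10 genes, open circles for shSCR and filled circles for shSKP2, RD in red and JR1 in blue, with 1 library per point and no error bars. ASNS, SESN2, CHAC1 and HERPUD1 lie to the right of their controls in both lines, and XBP1, ATF4, ATF3 and HSPA5 to the left.

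The question put to the knockdown was how gene expression in each line follows the loss of SKP2. Each change is log2 of TPM + 1 with shSKP2 over TPM + 1 with shSCR in the same line, which understates the change of low genes, and a gene was counted as having risen or fallen at 1 or more in either direction, a factor of 2. ASNS and SESN2 rose in both lines, ATF3 fell in JR1, and no other member passed the limit. In RD 2 of the 10 genes rose, beside 1.08% of all compared genes, and 0 fell, beside 7.37%. In JR1 2 rose, beside 1.78%, and 1 fell, beside 9.05%. Among all compared genes 140 rose and 957 fell in RD and 231 rose and 1175 fell in JR1. After rescaling, among 15220 genes, 670 rose and 526 fell in RD and 747 rose and 1140 fell in JR1. The balance of rises and falls thus depends on the scale and on the genes that pass the minimum. In bulk RNA, a change in the cells that express a gene and a change of its level per cell cannot be told apart.

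XBP1, the transcription factor of the IRE1 branch (chromosome 22, 28794560 to 28800569, GRCh38, minus strand), had 72.75 TPM in RD shSCR against 41.06 in RD shSKP2. In JR1 it had 73.15 and 39.09 TPM. As deposited the control levels of both lines were alike, and so were the knockdown levels. On the log2 scale XBP1 changed by -0.81 (RD) and -0.89 (JR1), short of the limit, and by -0.40 and -0.64 after rescaling. Changes at least as low were seen for 12.8% of compared genes in RD and for 11.8% in JR1.

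ATF4, the central factor of the integrated stress response (chromosome 22, 39514494 to 39522686, plus strand), had 316.21 TPM in RD shSCR against 191.89 in RD shSKP2. The JR1 libraries had 197.75 and 179.95 TPM. The RD control library stood above the other 3, which lay close together. This is a log2 change of -0.72 for RD and -0.14 for JR1, which was -0.30 for RD and turned to 0.13 for JR1 after rescaling. The span of ATF4 in the files overlaps MIEF1, a gene for a mitochondrial fission factor, which lay between 16.97 and 24.63 TPM.

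ATF3, a stress-induced factor downstream of ATF4 (chromosome 1, 212565407 to 212620777, plus strand), had 28.79 TPM in RD shSCR against 17.14 in RD shSKP2. The level in JR1 was 48.55 and 21.82 TPM. As deposited both knockdown libraries were below both control libraries, whereas after rescaling JR1 shSKP2 at 78.2 was above RD shSCR at 69.5. In JR1 it fell by 1.12 on the log2 scale, and by 0.88 after rescaling, which is short of the limit. The RD change was -0.72, and -0.32 after rescaling.

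DDIT3 encodes CHOP, a factor linked to cell death in prolonged ER stress (chromosome 12, 57516588 to 57520517, minus strand). It had 30.72 TPM in RD shSCR against 38.63 in RD shSKP2. The JR1 levels were 39.05 and 37.83 TPM. The lowest level was that of RD shSCR and the other 3 libraries lay close together. Its log2 value of 0.32 for RD was above 0 and that of -0.04 for JR1 below, and after rescaling both were above, at 0.74 and 0.22. Its span overlaps MARS1, a tRNA synthetase gene at 84.82 and 51.54 TPM in RD and 76.21 and 63.75 in JR1. The libraries were directional but the strand setting of the quantification is not given in the sources used here, so reads of the overlap may be shared.

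ASNS, asparagine synthetase, makes asparagine from aspartate and is a classical ATF4 target (chromosome 7, 97851677 to 97928441, minus strand). It had 14.82 TPM in RD shSCR against 31.31 in RD shSKP2. JR1 had 13.04 and 36.51 TPM. The knockdown libraries of both lines were above the control libraries of both lines. ASNS rose by 1.03 (RD) and 1.42 (JR1) on the log2 scale, a TPM ratio of 2.11 and 2.80, and by 1.48 and 1.72 after rescaling. Of all compared genes 134 in RD and 105 in JR1 had a change at least as high, ASNS included, which is 1.03% and 0.81%. Its C/EBP-ATF element is printed above, and the overlapping read-through gene CZ1P-ASNS and the pseudogene ASNSP1 stayed at or under 0.38 TPM.

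SESN2, a sestrin that restrains mTORC1 when leucine is short and limits oxidative damage (chromosome 1, 28259452 to 28282491, plus strand), had 9.04 TPM in RD shSCR against 21.04 in RD shSKP2. Its JR1 levels were 14.46 and 34.18 TPM. Here too the knockdown libraries were above both controls. SESN2 rose by 1.13 (RD) and 1.19 (JR1), a TPM ratio of 2.33 and 2.36, and by 1.60 and 1.48 after rescaling. Of all compared genes 0.83% in RD and 1.24% in JR1 had a change at least as high. The search found no exact match of the 4 elements in its promoter window, and a link between elements and changes was not tested.

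CHAC1, which degrades glutathione and lies downstream of ATF4 and CHOP (chromosome 15, 40942137 to 40956518, plus strand), had 4.87 TPM in RD shSCR against 7.76 in RD shSKP2. In JR1 it had 5.62 and 11.10 TPM. These are log2 changes of 0.58 (RD) and 0.87 (JR1), under the limit of 1, and a change at least as high was seen for 3.27% and 2.53% of compared genes. After rescaling it was 1.03 and 1.20, past the limit in both lines. The number of members that rose was thus 3 in each line on that scale, beside 4.4% (RD) and 4.91% (JR1) of all genes. CHAC1 was the lowest of the 10 genes and the one whose change the added 1 understates most.

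TRIB3, a pseudokinase that ATF4 and CHOP induce and that feeds back on ATF4 (chromosome 20, 380760 to 397559, plus strand), had 16.10 TPM in RD shSCR against 11.65 in RD shSKP2. The JR1 values were 29.13 and 33.18 TPM. Both JR1 libraries were above both RD libraries, a split whose share among all genes was not computed. On the log2 scale this is -0.43 for RD and 0.18 for JR1, and -0.04 and 0.45 after rescaling. TRIB3 thus did not pass the limit in either line on either scale.

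HSPA5 encodes BiP, the main chaperone of the ER and the usual marker of the unfolded protein response (chromosome 9, 125234853 to 125241343, minus strand). It had 219.31 TPM in RD shSCR against 184.49 in RD shSKP2. Its levels in JR1 were 215.23 and 163.01 TPM. As deposited the control libraries were alike and above both knockdown libraries, whereas after rescaling RD shSCR, at 529.6, was the lowest of the 4. Its change of -0.25 in RD was near the median of all genes and that in JR1 was -0.40, and after rescaling it turned to 0.17 in RD and was -0.14 in JR1. HSPA5 did not pass the limit in either line on either scale.

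HERPUD1, a membrane protein of ER-associated degradation (chromosome 16, 56932142 to 56944864, plus strand), had 12.96 TPM in RD shSCR against 16.09 in RD shSKP2. In JR1 it had 17.18 and 19.83 TPM. HERPUD1 was thus higher with shSKP2, by 0.29 (RD) and 0.20 (JR1) on the log2 scale and by 0.72 and 0.46 after rescaling. HERPUD1 and HSPA5, with ER stress elements of either kind, were therefore on opposite sides of 0 in both lines as deposited. All 3 genes with such an element, XBP1 included, stayed under the limit on both scales, and a link of element and change was not tested.

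**Figure D3:**
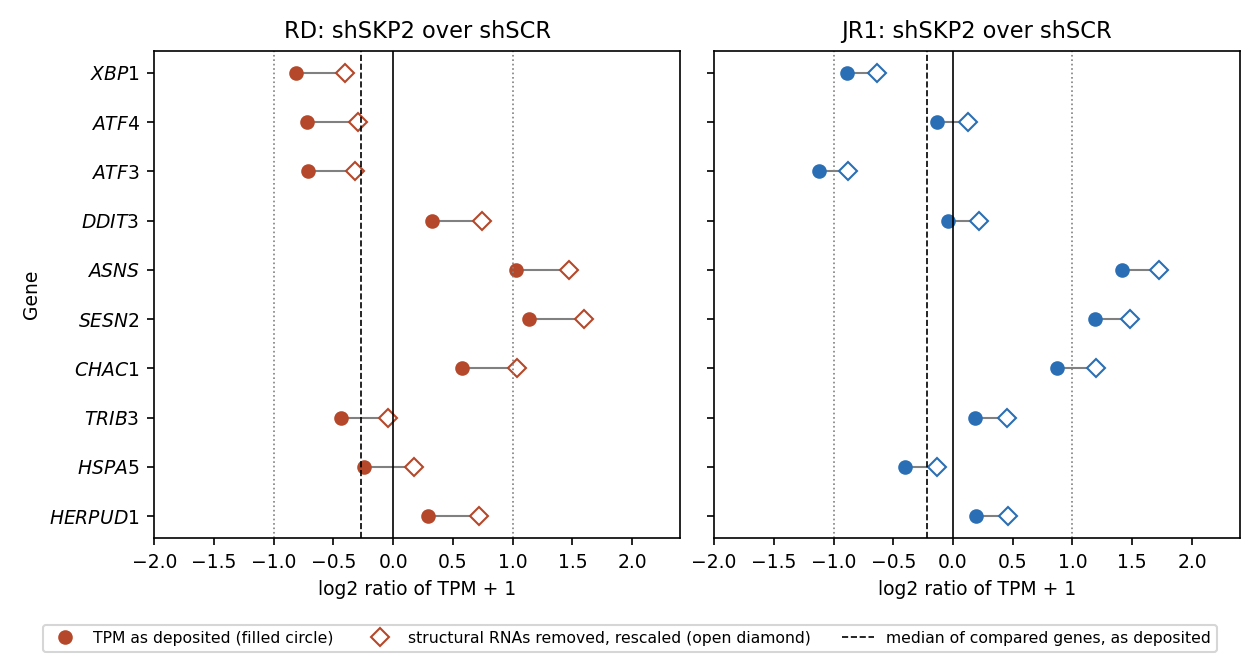
Log2 ratio of TPM + 1 with shSKP2 over shSCR for the 10 genes in RD (left) and JR1 (right), filled circles as deposited and open diamonds rescaled without structural RNA genes, from 1 library per group. Dotted lines mark the limit of 1 in either direction and dashed lines the median of all compared genes, -0.27 in RD and -0.21 in JR1. ASNS and SESN2 lie past 1 on both scales in both lines.

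A ratio of members within a library is free of the scale of that library. The level of ASNS was 4.69% of that of ATF4 in RD shSCR and 16.3% in RD shSKP2, and 6.59% and 20.3% in JR1. The ratio grew 3.48-fold in RD and 3.08-fold in JR1. SESN2 to ATF4 grew 3.84-fold in RD and 2.60-fold in JR1, and CHAC1 to ATF4 grew 2.63-fold and 2.17-fold. TRIB3 to ATF4 changed by a factor of 1.19 in RD and 1.25 in JR1, less than these. DDIT3 to ATF4 grew 2.07-fold in RD and 1.06-fold in JR1.

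The ATF3 and DDIT3 messages parted in both lines. DDIT3 was 106.7% of ATF3 in RD shSCR and 225.4% in RD shSKP2, and 80.4% and 173.4% in JR1, a factor of 2.11 and 2.16. In the ER branch HERPUD1 was 17.8% of XBP1 in RD shSCR and 39.2% in RD shSKP2, and 23.5% and 50.7% in JR1, a factor of 2.20 and 2.16. HERPUD1 to HSPA5 grew 1.48-fold and 1.52-fold. These last 3 factors were close to the same in both lines.

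The wider pathways were followed in 14 lists of genes, which hold the 10 members too. Counts of rises and falls in a list are to be read beside the shares of all compared genes as deposited. In RD 1.08% of these rose and 7.37% fell, and in JR1 1.78% rose and 9.05% fell. The highest and the lowest gene named for a list are those by the mean of both lines' changes as deposited. Of 14 kinases of eIF2 and parts of the eIF2 machinery, 0 rose and 0 fell in either line. The list medians were -0.22 (RD) and -0.14 (JR1), and turned to 0.17 and 0.11 after rescaling, beside 0.12 and 0.01 for all genes. EIF2B5, a subunit of the eIF2 exchange factor, was the lowest of these at -0.72 and -0.60, and PPP1R15B, which helps to dephosphorylate eIF2, the highest at 0.15 and 0.19. Of 13 sensors and factors of the unfolded protein response 0 rose and 1 fell in each line. The list medians of -0.27 and -0.16 lay near those of all genes. They turned to 0.08 and 0.07 after rescaling, beside 0.12 and 0.01 for all genes. The gene that fell was MBTPS1, the Golgi protease that cuts ATF6. It had 46.97 and 17.43 TPM in RD and 29.63 and 11.02 in JR1, shSCR before shSKP2, a change of -1.38 and -1.35. After rescaling MBTPS1 was just short of the limit in RD and at -1.14 in JR1. ERN1, which encodes IRE1, had 1.54 and 1.85 TPM in RD and 2.36 and 2.61 in JR1.

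Of 7 transcription factors of the integrated stress response 0 rose in either line, 0 fell in RD and ATF3 fell in JR1. Their median was -0.41 for RD and -0.20 for JR1. After centring on the median of all genes it was -0.14 for RD and turned to 0.02 for JR1. After rescaling, with NUPR1 included, it was -0.19 for RD and -0.01 for JR1. NUPR1, a stress-induced chromatin protein, averaged under 1 TPM as deposited and passed that minimum after rescaling. It had 0.84 and 0.01 TPM in RD and 1.17 and 0.33 in JR1, and was named after its values were seen.

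ATF4 target genes were taken in 4 lists with 50 compared genes in all. Of these 3 rose and 3 fell in RD, beside 1.08% and 7.37% of all compared genes. For JR1 4 rose and 0 fell, beside 1.78% and 9.05%. In RD 23 of the 50 were above 0, beside 24.6% of all compared genes, and in JR1 28 of 50, beside 30.9%. The median of the 50 was -0.02 in RD and 0.10 in JR1 as deposited, against -0.27 and -0.21 for all genes. After rescaling it was 0.38 and 0.37, with 40 and 41 of the 50 above 0, beside 60.7% and 51.0% of all genes. ASNS and SESN2 thus rose within lists most of whose genes did not pass the limit.

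Among 14 genes of amino acid synthesis ASNS rose in both lines and stood alone in doing so. SHMT2, the mitochondrial serine hydroxymethyltransferase, had 66.74 and 31.26 TPM in RD and 64.74 and 34.21 in JR1, so it fell by 1.07 in RD, which became -0.67 after rescaling, and its JR1 change was -0.90. The list median was -0.03 in RD, which turned to 0.38 after rescaling, and 0.17 in JR1. Of 9 amino acid transporters 0 rose and 0 fell, and SLC6A9, a glycine transporter, was highest with 1.64 and 3.50 TPM in RD and 1.77 and 4.18 in JR1. Its change of 0.77 and 0.90 was under the limit, and SLC7A5, a carrier of large neutral amino acids, was lowest by that mean at -0.08 and -0.54, of which the RD value turned to 0.34 after rescaling. Of 13 tRNA synthetase and tRNA export genes 0 rose, and WARS1, the tryptophan enzyme, fell by 1.17 in RD, where it had 96.51 and 42.25 TPM, and its change was -0.77 after rescaling. Its JR1 change was -0.37, and YARS1, the tyrosine enzyme, was the highest of the list at 0.35 and 0.65.

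Among 14 feedback and effector targets SESN2 and DDIT4 rose in both lines. DDIT4 encodes REDD1, which inhibits mTORC1 as SESN2 does by another route. It had 25.26 and 54.96 TPM in RD and 31.44 and 100.94 in JR1, a change of 1.09 and 1.65, and 1.53 and 1.94 after rescaling. Of 7 genes of the sestrin family and other brakes on mTORC1, SESN2 and DDIT4 rose in both lines and CASTOR1, an arginine sensor, fell in JR1 from 8.24 to 2.36 TPM. The list median was 0.20 in RD and 0.36 in JR1. In the effector list INHBE, which encodes an activin subunit, rose in JR1 from 4.49 to 15.11 TPM, and went from 1.38 to 3.05 in RD. GDF15, a stress hormone of the TGF-beta family, fell in RD from 9.98 to 4.49 TPM, at the limit itself and at -0.69 after rescaling, and went from 29.55 to 26.72 in JR1. INHBE and GDF15 were named after their values were seen. ERO1A, an ER oxidase, had the lowest mean change of the list at -0.57 and -0.71.

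Of 26 ER chaperones and folding enzymes 2 were above 0 in RD and 0 in JR1 as deposited, beside 24.6% and 30.9% of all compared genes. Of these 26, 24 were lower with shSKP2 in both lines, a joint share not computed for all genes. Of the 26, 0 passed the limit in RD and 3 fell in JR1, where 9.05% of all compared genes fell. Their medians were -0.36 (RD) and -0.44 (JR1), and 0.04 and -0.25 after rescaling, when 14 and 4 of the 26 were above 0, beside 60.7% and 51.0% of all genes. The 3 that fell in JR1 were FKBP11, FKBP14 and SDF2L1, a pair of ER prolyl isomerases and a partner of BiP, of which FKBP14 and SDF2L1 were named after their values were seen. FKBP11 had 3.43 and 2.69 TPM in RD and 21.11 and 6.69 in JR1. DNAJC3, an ER co-chaperone, was the highest by mean at 0.23 in RD and -0.01 in JR1, which turned to 0.24 after rescaling.

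Of 21 compared genes of ER-associated degradation 0 rose and 0 fell in either line, with medians of -0.28 and -0.18, near the -0.27 and -0.21 of all genes. After rescaling the medians turned to 0.12 and 0.07, beside 0.12 and 0.01 for all genes. Of the 21, 15 and 14 were then above 0, beside 60.7% and 51.0% of all genes. DERL2, a part of the export channel, was the highest by mean at 0.28 and 0.55, above HERPUD1 in JR1. EDEM1, a mannosidase-like factor and known XBP1 target, was the lowest by mean with 15.64 and 8.07 TPM in RD and 15.22 and 8.31 in JR1, a change of -0.88 and -0.80. Of 22 translocon and signal peptidase genes 0 rose, 2 fell in RD and 3 in JR1, where 7.37% and 9.05% of all compared genes fell. Their medians of -0.26 (RD) and -0.09 (JR1) turned to 0.15 and 0.17 after rescaling. Of the 22, 18 and 15 were then above 0, beside 60.7% and 51.0% of all genes. SPCS2, a signal peptidase subunit, had 19.37 and 7.94 TPM in RD and 18.61 and 7.59 in JR1, a change of -1.19 in both. SPCS1, another subunit, fell by 1.08 and 1.07, and SPCS3, named after its values were seen, fell in JR1 from 39.37 to 17.99 TPM. After rescaling SPCS2 was -0.84 in RD and SPCS1 -0.83, both short of the limit. SRP14, of the signal recognition particle, was the highest at 0.55 and 0.99.

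Other stress programmes were set beside these. Of 12 compared genes of the cytosolic heat shock response 0 were above 0 in either line as deposited, beside 24.6% (RD) and 30.9% (JR1) of all compared genes. Their medians were -0.29 and -0.49, and after rescaling 0.11 and -0.24, with 8 and 5 of the 12 above 0 beside 60.7% and 51.0% of all genes. DNAJB1, a partner of HSP70, had 49.52 and 25.93 TPM in RD and fell in JR1 from 52.87 to 23.63. HSPB1, a small heat shock protein, was the highest by mean at -0.08 and -0.01, which turned to 0.34 and 0.25 after rescaling. Of 10 mitochondrial chaperones and proteases 0 rose and 0 fell, from LONP1, a matrix protease, at -0.67 and -0.71 to YME1L1, an inner membrane protease, at -0.17 and 0.08, of which the RD value turned to 0.24 after rescaling. Of the targets of NRF2, the factor of the oxidative stress response, 0 rose in either line. GCLM, of glutathione synthesis, fell in both, with 8.07 and 2.88 TPM in RD and 6.38 and 1.95 in JR1, and NQO1, a quinone reductase named after its values were seen, fell by 1.10 in RD. SLC7A11, the cystine carrier shared by the NRF2 and ATF4 lists, had 2.21 TPM in both RD libraries and a change of 0.31 in JR1. The falls in these lists depended on the scale. After rescaling none of the list genes that fell in RD as deposited was past the limit, and in JR1 MBTPS1, SPCS2, FKBP11, GCLM and CASTOR1 still passed it. NUPR1, which entered only on that scale, was lower past the limit in both lines. DDIT4 rose on both scales in both lines, as ASNS and SESN2 did, and INHBE and SLC6A9 passed the limit in both lines after rescaling. In JR1 SRP14, BBC3, which encodes the death factor PUMA, and CASTOR2, an arginine sensor gene, also passed it on that scale. BBC3 and CASTOR2 were named after their values were seen.

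**Figure D4:**
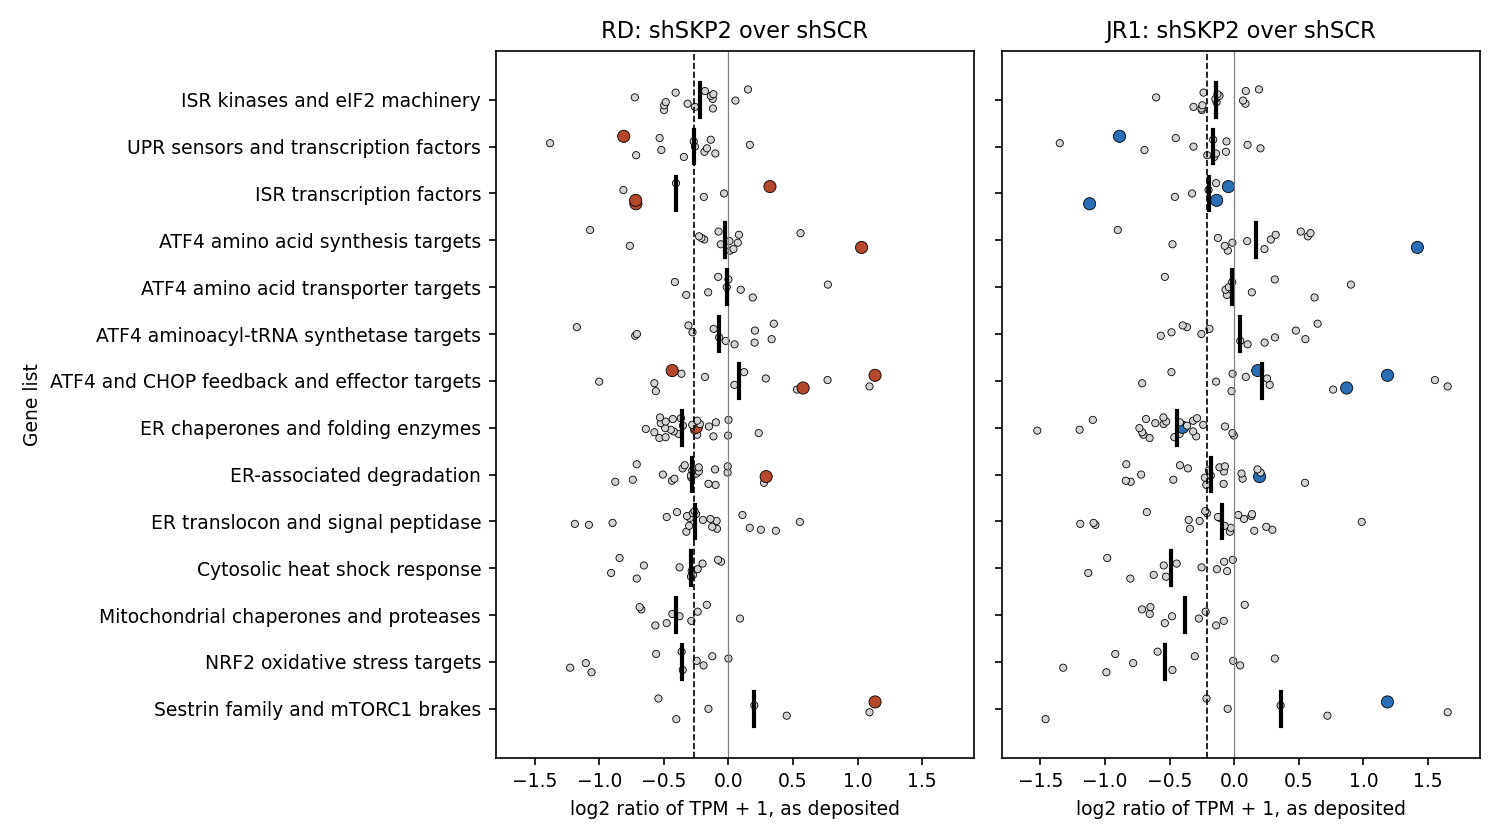
Log2 ratio of TPM + 1 with shSKP2 over shSCR, as deposited, for the compared genes of 14 stress lists in RD (left) and JR1 (right), with 1 point per gene, large coloured points for the 10 members and a vertical bar for each list median. Dashed lines are the medians of all compared genes. The 4 ATF4 target lists have medians between -0.07 and 0.22, right of the dashed lines, and the ER chaperone list has medians of -0.36 and -0.44, left of them.

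The elements of the promoters were counted in the lists as a description. A C/EBP-ATF element was in 17 of the 41 ATF4 target genes with a window, beside 4.46% of all genes, and in 7 of 11 tRNA synthetase genes. An ER stress element was in 7 of 24 ER chaperone genes, HSPA5, HSP90B1, CALR, CANX, PDIA6, CRELD2 and ERO1B, beside 0.0916% of all genes.

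RD and JR1 were next compared with the same hairpin. In control cells 0 of the 10 genes were higher in RD by the limit, beside 6.5% of all compared genes, and 0 were lower, beside 3.44%. ATF4 was the member furthest above JR1, at a log2 difference of 0.67, and TRIB3 and ATF3 were the furthest below, at -0.82 and -0.73. SESN2 was at -0.62, HERPUD1 at -0.38, DDIT3 at -0.34 and CHAC1 at -0.17. HSPA5, XBP1 and ASNS were close to level, at 0.03, -0.01 and 0.17, and HSPA5 and ASNS turned to -0.28 and -0.12 after rescaling. On that scale ATF3 and TRIB3 were lower in RD past the limit, at -1.05 and -1.14, and the all-gene counts of 844 higher and 447 lower became 717 and 1065. As deposited, RD thus had more ATF4 message than JR1 in control cells, with a TPM ratio of 1.60. The ratio was 0.55 for TRIB3 and 0.63 for SESN2. The ATF4 difference was short of the limit and was 0.37 after rescaling. As deposited, 15.6% of compared genes had a difference at least as high.

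With shSKP2, 0 members were higher in RD, beside 5.39% of all compared genes, and 1 was lower, beside 2.7%. The gene was TRIB3, at -1.43 and at -1.63 after rescaling, with 11.65 TPM in RD and 33.18 in JR1. A difference at least as low was seen for 1.35% of compared genes. SESN2 was at -0.67, CHAC1 at -0.47, ATF3 at -0.33, HERPUD1 at -0.29 and ASNS at -0.22. HSPA5, ATF4, XBP1 and DDIT3 were at 0.18, 0.09, 0.07 and 0.03, and the last 3 turned to -0.05, -0.08 and -0.12 after rescaling. The all-gene counts of 700 higher and 351 lower became 953 and 753. In the effector list GDF15 and INHBE were lower in RD past the limit with either hairpin, at -1.48 and -1.21 in control cells and at -2.34 and -1.99 with shSKP2.

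The changes of the lines were set against each other as the RD change minus the JR1 change, which no replicate can test. Over all compared genes this difference ran from -0.62 at the lowest 5% to 0.61 at the highest 5%, with a median of -0.06. TRIB3 at -0.62 and ATF4 at -0.58 had the largest differences of the members, and 9.96% and 11.4% of all genes differed by as much. ATF3 was at 0.40, ASNS at -0.39 and DDIT3 at 0.37, which 23.8%, 25.4% and 27.9% of genes reached. CHAC1 at -0.29, HSPA5 at 0.15, HERPUD1 at 0.10, XBP1 at 0.08 and SESN2 at -0.05 differed by less. As deposited 4 members were above 0 in both lines, 4 were below 0 in both and 2 were opposite. After rescaling these numbers were 5, 2 and 3. Of all compared genes 24.6% (RD) and 30.9% (JR1) were above 0 as deposited, and 60.7% and 51.0% of all genes after rescaling. The share of all genes on the same side of 0 in both lines was not computed.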

How the data were processed

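The authors aligned paired reads of 150 bases to GRCh38 with STAR and quantified genes with RSEM, listed as STAR 2.7.9a and RSEM 1.3.2 in the submitters' processing notes. The deposited values are TPM per gene with 2 decimals, 1 library per line and hairpin. TPM keep no read counts, so depth is unknown and no interval can be given. The strand setting and annotation release are not given in the sources used here. The gene spans in the files start before those of RefSeq on GRCh38.p14 for ATF4, CHAC1 and SESN2.

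From the TPM, log2((TPM + 1)/(TPM + 1)) was computed for genes that averaged 1 TPM or more, with a limit of 1. Alternatives were a pseudocount of 0.1 TPM, removal of 1068 structural RNA genes by symbol with rescaling, centring on the median, every gene above 0 TPM, a minimum mean of 5 TPM and a limit of 1.5-fold. Beside the members and SKP2, the named genes were the highest and lowest of each of the 14 lists by mean change of both lines. Genes of these lists past the limit in the same direction in both lines were named too. The rule did not cover the marker lists. The members and lists were chosen with earlier results of these data known. 1 gene of the NRF2 list is not reported here. The script was tested on simulated data. Python 3.11.15, numpy 2.4.6, pandas 2.3.3 and matplotlib 3.10.9 were used.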

Additional observations from a re-analysis of the deposited data

Results flagged for a closer look

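DDIT3 and TRIB3 had changes of opposite sign in the lines. For DDIT3 the RD change minus the JR1 change was 0.37, from 0.32 and -0.04, and after rescaling both changes were above 0. For TRIB3 it was -0.62, from -0.43 and 0.18. Among the other named genes DNAJC3 had a difference of 0.25 and YME1L1 one of -0.25, again with opposite signs as deposited. After rescaling both changes of DNAJC3, at 0.66 and 0.24, and both of YME1L1, at 0.24 and 0.34, were above 0. With 1 library per group these differences were not tested.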

How the results depend on the processing

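No paired analysis was possible because each group has 1 library and the labels carry no replicate numbers, and leaving out a library is not possible either. The rises of ASNS and SESN2 in both lines held under all alternatives run, but none of these lowered the changes. The settings of the minimum left each change as it was, and the 1.5-fold limit is looser. The pseudocount of 0.1 TPM, rescaling and centring each made the changes of both genes larger. That the rises held therefore adds no support to them. After rescaling 3 members rose in each line, beside 4.4% (RD) and 4.91% (JR1) of all genes. The number of members that fell in JR1 went from 1 to 0 after rescaling, beside 7.49% of all genes, and to 0 after centring, beside 5.47%. Between the control libraries the number lower in RD was 2 after rescaling, beside 7.0%, and 1 after centring, beside 5.06%. At the 1.5-fold limit the number that fell went from 0 to 3 in RD and from 1 to 2 in JR1. Between the control libraries 1 member was then higher in RD and 3 were lower, and with shSKP2 2 were lower. The share of all genes past the 1.5-fold limit was not computed, so the counts at that limit say nothing particular about the members. Directions turned only after rescaling or centring, for HSPA5 in RD, DDIT3 and ATF4 in JR1, HSPA5 and ASNS between controls, and DDIT3, ATF4 and XBP1 between knockdown libraries. Over all compared genes, a pseudocount of 0.1 TPM gave 279 rises in RD, 378 in JR1 and 1192 genes higher in RD with shSKP2, against 140, 231 and 700. Centring gave 272 rises and 458 falls in RD, 388 and 710 in JR1, 495 genes higher in RD among controls and 460 with shSKP2. A minimum of 5 TPM gave 87 rises in RD and 143 in JR1, and 257 and 207 genes lower in RD than in JR1 among controls and with shSKP2. TPM without counts set no depth, and single libraries set no error.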
